A study of Mus musculus with 13 samples.

Results

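Mouse embryonic fibroblasts do not enter meiosis, and the genes that serve meiosis and the PIWI-interacting RNA (piRNA) pathway are mostly silent in them. A set of 44 such genes was followed in poly(A) RNA from fibroblasts in which Setdb1, a histone H3 lysine 9 methyltransferase, was depleted, with or without 5-azacytidine (5-aza), a drug that stops DNA methylation from being copied at replication. The members were taken from a list of names: 43 of the 44 had a row, among 25965 rows in all, and Meioc was not found under that symbol and was not analysed here. Without 5-aza, the cohesin gene Stag3, the synaptonemal complex gene Syce2 and the piRNA pathway genes Tdrd9, Tdrd1 and Stk31 were higher with Setdb1 hairpins. By the study's methods these hairpins went into cells with a Setdb1 gene-trap allele, so hairpin and allele cannot be told apart. With 5-aza in both groups Taf7l and, less firmly, Piwil2 were higher too, while the helicase gene D1Pas1 was lower, a call that 4 of the 12 libraries could each undo when left out. Tdrd9, Stk31, Taf7l and Piwil2 had few reads in control cells and entered the test through the groups in which they were high.

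The cells were primary female XXist∆A/XPGK fibroblasts from E13.5 embryos, bred from 129/C57 dams that carried the Xist∆A allele and PGK-X sires. Hairpins, short RNAs that deplete a target, were delivered by retrovirus, and transduced cells were selected with puromycin. There were 4 groups of 3 libraries: control hairpin, Setdb1 hairpin, control hairpin with 5-aza and Setdb1 hairpin with 5-aza. Replicates A and B of a group shared a hairpin: a non-silencing one in controls, shSetdb1.4 in Setdb1 libraries. The hairpin of replicate 1 was directed against Luciferase in controls and was shSetdb1.6 otherwise. The drug was given for 24 h from day 3 after transduction, and RNA was taken on day 7 in all groups. By the study's methods, Setdb1 hairpins went into cells with a gene-trap allele (Setdb1 +/gt), and the non-silencing hairpin into wild-type cells, with no genotype stated for cells given the Luciferase hairpin, replicate 1 of both control groups. The labels give no genotype per library, so depletion by hairpin and the heterozygous allele cannot be told apart. Nothing says that replicates came from separate embryos, so the p-values measure the spread between these libraries, which may be technical. A library treated with 5-aza that has no named hairpin was placed in no group. Its library name holds PGK, and the study's methods take PGK variants from a PGK sample. Whether its cells were of the cross above is not stated.

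In germ cells, sister chromatids are held by cohesin and homologous chromosomes by the synaptonemal complex, while Spo11 breaks and Dmc1 repairs their DNA. The piRNA pathway loads small RNAs into PIWI proteins, which silence transposons. Tudor domain proteins bind methylated arginines of PIWI proteins, and helicases such as Ddx4, Mov10l1 and Tdrd9 process or carry the RNAs. In somatic cells many of these genes have CG-rich promoters that are methylated, and histone H3 lysine 9 methylation and E-box binding repressors also act on some of them.

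The hairpin libraries held 41.9 to 58.8 M reads, recovered from the steps of the deposited log2 RPM values (RPM, the share of a library's reads scaled to a fixed total), so that 1 read was worth 0.017 to 0.0239 RPM. In control libraries Setdb1 itself had a mean of 46.2 ± 0.103 RPM (SD of 3 libraries, as below), against 14.1 ± 1.72 RPM in Setdb1 hairpin libraries, and with 5-aza 43.4 ± 0.631 against 12.9 ± 2.16 RPM. It fell by 1.73 (SE 0.11) and by 1.76 (SE 0.11) on the log2 scale, with limma adjusted p of 1.15e-06 and 9.73e-07. The fibroblast markers Col1a1, Vim and Thy1 were read in every library, and 10 such markers summed to 16690 to 26670 RPM. All 10 were tested. With Setdb1 hairpins and 5-aza against control hairpins and 5-aza, 0 were called higher and 1 lower (13.3% and 5.09% of all genes). For the drug in Setdb1 hairpin cells it was 1 and 2 (20.0% and 6.78%). Their median changes were -0.36 and -0.20 on the log2 scale. In the other hairpin and drug comparisons none was called (8.55% and 3.26%, and 12.9% and 4.75%, of all genes). Of 13 markers of germ cells and pluripotent cells, 7 had no read in any of the 12 libraries (Pou5f1, Dppa5a, Prdm14, Sall4, Lin28a, Utf1 and Nanos2). Of 8 markers of gonadal support cells only Nr5a1 had no read, and the 8 summed to 82.4 to 210 RPM, mostly Fst. The summed level of the 13 markers was 0.424 to 0.647 RPM with control hairpins, 0.549 to 0.779 RPM with Setdb1 hairpins, 1.86 to 2.45 RPM with control hairpins and 5-aza, and 3.91 to 4.64 RPM with both. Most of the rise with 5-aza was Dazl, which held 253 and 561 of the pooled reads in the 5-aza groups. Markers of other cell types summed to 54.2 to 76.9 RPM, mostly Tubb3. The 4 tested were Cd68, Csf1r, Cdh5 and Tubb3. Of these, 2 were called higher with 5-aza in control and 3 in Setdb1 hairpin cells, against 12.9% and 20.0% of all genes tested. With Setdb1 hairpins without 5-aza 1 was called higher, against 8.55%. The macrophage marker Csf1r had 7.53 ± 0.426 RPM in control and 7.67 ± 0.336 RPM in Setdb1 hairpin cells. With the drug it had 9.07 ± 0.748 and 9.35 ± 0.285 RPM. Cd68, also of macrophages, had 1.99 ± 0.112 and 1.86 ± 0.308 RPM, and with the drug 2.41 ± 0.414 and 2.67 ± 0.395 RPM. Tubb3 had 45.8 ± 1.24 and 61.9 ± 5.02 RPM, and with the drug 46.6 ± 6.31 and 51.2 ± 9.18 RPM. The endothelial marker Cdh5 had 0.325 ± 0.15 and 0.256 ± 0.0529 RPM without the drug, in control and Setdb1 hairpin cells, and 0.987 ± 0.0686 and 0.872 ± 0.102 RPM with it. With Setdb1 hairpins and 5-aza Pecam1 held 57 pooled reads, against 12 in each other group, and Myod1, a muscle marker, held 87 against 5 to 13. Krt5 went the other way between hairpins under the drug, with 69 pooled reads in control and 12 in Setdb1 hairpin cells, against 5 and 8 without it. The part of these markers in the results was not tested.

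Pooled over the 3 control hairpin libraries, 17 of the 43 genes had no read (39.5%, against 31.1% of all rows). The control level of Tdrd7 was 5.84 RPM per kilobase of exon and that of Tdrkh 2.08, and these 2 genes took 81.3% to 82.9% of all the reads of the set in the control libraries. Both encode Tudor domain proteins. Below them came Syce2 at 0.779, Hspa1l at 0.577 and Sycp3 at 0.507 RPM per kilobase, and Stag3 stood at 0.144. Hspa1l shares 71.9% of its exon bases with Gm10501 on the opposite strand, Sycp3 shares 52.2% with Chpt1 and Tdrkh 36.7% with Oaz3. Of the 50-base stretches of Hspa1l, 71.4% also occur in transcripts of other genes, most with Gm10501 and then with Hspa1a. The strand of the reads is not stated, so reads of such partners cannot be told apart from those of the genes themselves.

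The number of genes with a read in all 3 libraries of a group was 20 of 43 with control hairpins (46.5%), 25 with Setdb1 hairpins (58.1%), 25 with control hairpins and 5-aza (58.1%) and 30 with both (69.8%). Over all rows the same shares were 62.8%, 63.1%, 64.0% and 64.7%. The summed level of the 41 genes other than Tdrd7 and Tdrkh was 7.49 to 7.97 RPM in the control libraries and 13.4 to 15.3 RPM in the Setdb1 libraries. With 5-aza it was 10.7 to 11.8 RPM in control and 19.3 to 23.2 RPM in Setdb1 hairpin cells. Syce2, Stag3 and Tdrd9 made up most of the rise with Setdb1 hairpins in both conditions. Hspa1l and D1Pas1 made up a large part of the rise with 5-aza in control cells. The 4 groups did not overlap in this sum, and replicate 1, with a hairpin of another sequence, was the highest of the Setdb1 libraries both with and without 5-aza. In bulk RNA, a rise in few cells and a smaller rise in all cells cannot be told apart.

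**Figure D1:**
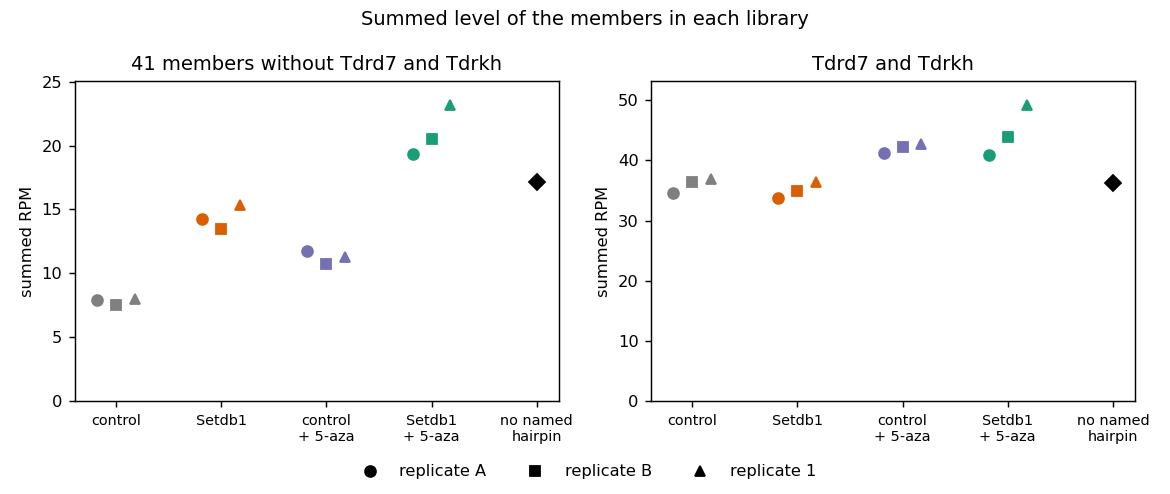
Summed RPM (y axis) of 41 genes of the set (left) and of Tdrd7 and Tdrkh (right) in each library, by hairpin and treatment (x axis). Circles, squares and triangles are replicates A, B and 1, and the diamond is the library with no named hairpin. The 41 genes sum to 7.49 to 7.97 RPM with control hairpins and to 19.3 to 23.2 RPM with Setdb1 hairpins and 5-aza, while Tdrd7 and Tdrkh together differ less between groups.

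**Figure D2:**
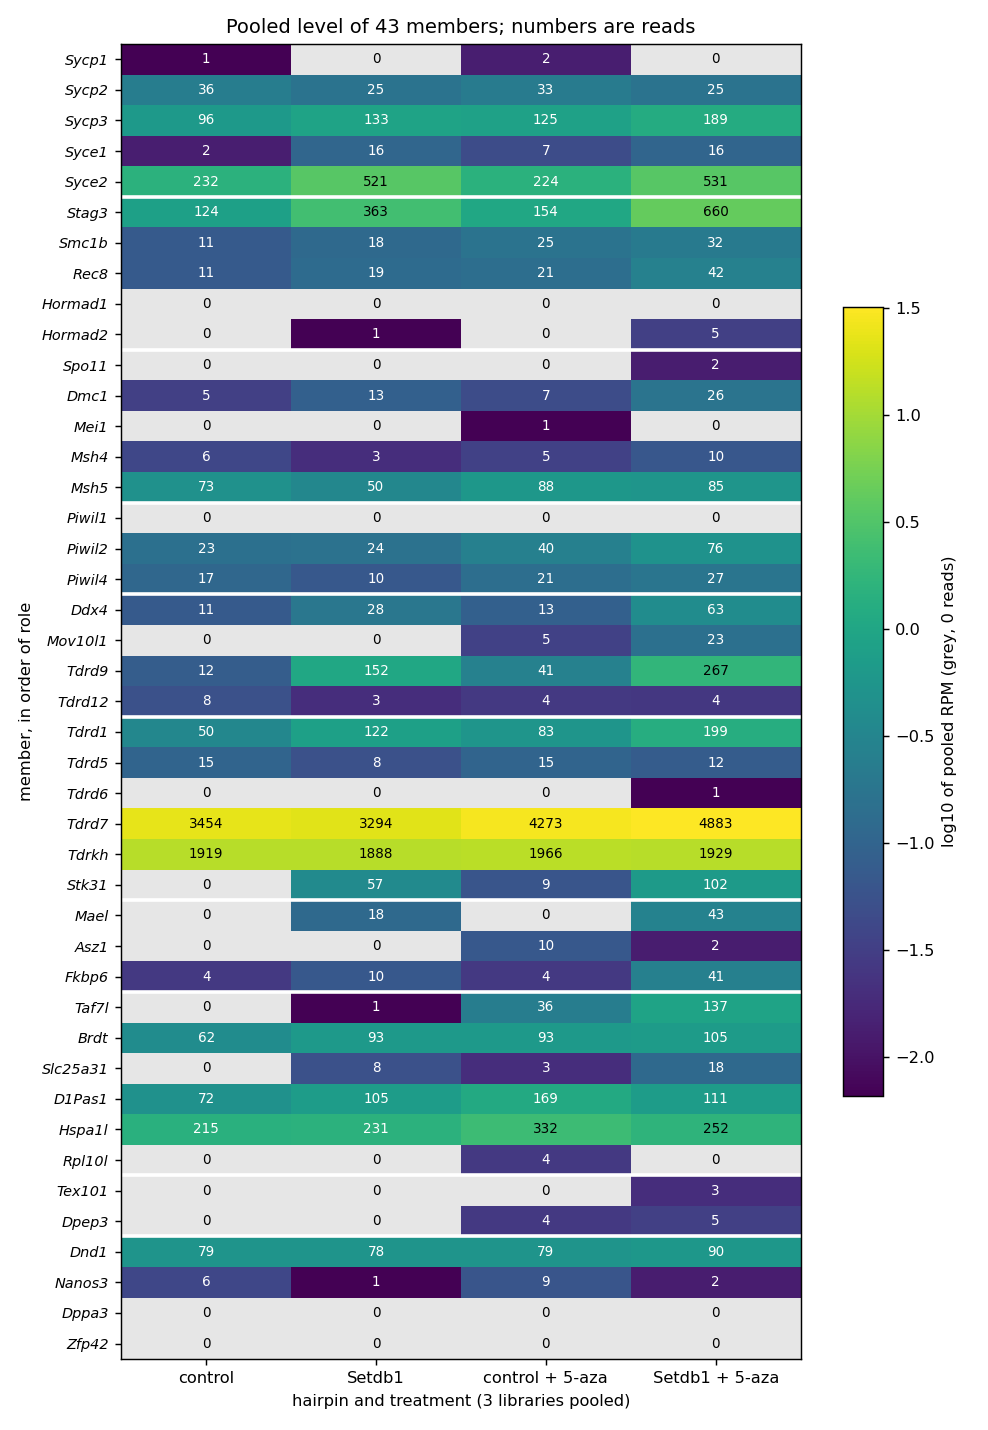
Pooled level of the 43 genes (rows, in order of role, with white lines between roles) in the 4 groups (columns). Colour is the log10 of pooled RPM, the number in each cell is the reads of 3 libraries, and grey cells have 0 reads. Mael, Stk31 and Taf7l have 0 reads with control hairpins and 43, 102 and 137 with Setdb1 hairpins and 5-aza.

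Promoters were examined because many germline genes share CG-rich promoters with an E-box, the motif CACGTG. RefSeq windows of GRCm38.p6, from 250 bases before to 50 bases after a gene's start, were found for 38 of the 43 genes (48 windows). They held a median of 18.5 CG dinucleotides per window, against 7 in all 32851 windows. At least 1 window held CACGTG in 16 of the 38 genes (42.1%), against 8.09% of 27025 genes with a window. Among genes with a window of 10 or more CG it was 16 of 35 (45.7%), against 11.8% of 12388. The motif TCCCGC, a site form known for E2F factors, was in 39.5% of the genes against 22.0% of all, and in 42.9% against 42.4% of those with 10 or more CG. The cyclic AMP response element TGACGTCA was in none of them and in 2.03% of all genes. Each motif was sought on both strands. A match describes the letters only and not binding.

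The windows of 7 genes called higher with Setdb1 hairpins are given below 5′ to 3′ on the strand of the gene, with Tdrkh, which was called in no comparison and has no match, for contrast. Another window of Syce2 and another of Tdrd1, the latter with 3 CG, hold no CACGTG and are not shown. Capitals mark CACGTG, and TCCCGC or its reverse complement GCGGGA. The windows are Stag3 on chromosome 5 (138280259 to 138280558, plus strand), Syce2 on chromosome 8 (84872008 to 84872307, plus strand), Tdrd9 on chromosome 12 (111971309 to 111971608, plus strand), Stk31 on chromosome 6 (49395354 to 49395653, plus strand), Tdrd1 on chromosome 19 (56825959 to 56826258, plus strand), Mael on chromosome 1 (166238695 to 166238994, minus strand), Taf7l on chromosome X (134476441 to 134476740, minus strand) and Tdrkh on chromosome 3 (94412994 to 94413293, plus strand).
Stag3: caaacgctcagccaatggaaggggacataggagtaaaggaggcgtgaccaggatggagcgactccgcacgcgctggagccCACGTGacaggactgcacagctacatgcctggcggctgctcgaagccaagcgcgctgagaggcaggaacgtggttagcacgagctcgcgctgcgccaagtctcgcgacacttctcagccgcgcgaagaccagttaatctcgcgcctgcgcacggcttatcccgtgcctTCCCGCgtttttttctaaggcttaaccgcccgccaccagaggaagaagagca
Syce2: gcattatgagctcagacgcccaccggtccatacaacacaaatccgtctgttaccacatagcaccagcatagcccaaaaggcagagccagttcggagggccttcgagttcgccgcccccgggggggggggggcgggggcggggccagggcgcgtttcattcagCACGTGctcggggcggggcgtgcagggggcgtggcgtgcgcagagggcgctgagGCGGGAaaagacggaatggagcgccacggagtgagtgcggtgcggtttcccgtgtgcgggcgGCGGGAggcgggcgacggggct
Tdrd9: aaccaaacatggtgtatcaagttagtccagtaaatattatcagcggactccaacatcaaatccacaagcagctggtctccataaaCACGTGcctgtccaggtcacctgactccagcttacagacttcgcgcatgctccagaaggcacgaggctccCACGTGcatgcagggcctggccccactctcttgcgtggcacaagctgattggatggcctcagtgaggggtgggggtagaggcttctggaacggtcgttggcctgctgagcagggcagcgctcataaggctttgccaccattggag
Stk31: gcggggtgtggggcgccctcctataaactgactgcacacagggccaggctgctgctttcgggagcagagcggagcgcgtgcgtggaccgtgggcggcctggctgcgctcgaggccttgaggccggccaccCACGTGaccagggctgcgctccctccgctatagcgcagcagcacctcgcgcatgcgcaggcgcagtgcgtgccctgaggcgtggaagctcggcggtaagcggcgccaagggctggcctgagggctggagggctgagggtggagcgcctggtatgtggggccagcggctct
Tdrd1: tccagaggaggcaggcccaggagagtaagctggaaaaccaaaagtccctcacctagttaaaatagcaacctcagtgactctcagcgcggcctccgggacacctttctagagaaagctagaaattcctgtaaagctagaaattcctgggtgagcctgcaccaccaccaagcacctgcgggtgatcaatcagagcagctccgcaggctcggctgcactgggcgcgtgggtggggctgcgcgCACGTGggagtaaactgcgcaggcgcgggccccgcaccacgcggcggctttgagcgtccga
Mael: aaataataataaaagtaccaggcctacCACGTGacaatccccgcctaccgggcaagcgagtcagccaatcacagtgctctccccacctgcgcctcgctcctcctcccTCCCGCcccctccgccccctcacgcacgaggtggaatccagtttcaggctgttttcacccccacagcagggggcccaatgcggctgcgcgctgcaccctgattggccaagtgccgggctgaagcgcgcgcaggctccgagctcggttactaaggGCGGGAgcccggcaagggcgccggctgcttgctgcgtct
Taf7l: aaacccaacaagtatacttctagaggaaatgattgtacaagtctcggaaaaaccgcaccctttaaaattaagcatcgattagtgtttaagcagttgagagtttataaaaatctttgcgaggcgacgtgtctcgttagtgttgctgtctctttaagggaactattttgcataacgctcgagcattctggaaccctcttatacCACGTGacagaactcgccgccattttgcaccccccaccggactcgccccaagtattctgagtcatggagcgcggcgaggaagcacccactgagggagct
Tdrkh: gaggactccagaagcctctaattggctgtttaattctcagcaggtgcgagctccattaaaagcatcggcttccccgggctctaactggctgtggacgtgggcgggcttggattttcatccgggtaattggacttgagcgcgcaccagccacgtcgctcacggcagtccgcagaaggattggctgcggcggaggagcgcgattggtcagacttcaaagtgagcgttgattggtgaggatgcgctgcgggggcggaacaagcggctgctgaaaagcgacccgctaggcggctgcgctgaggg

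The E-box began 170 bases before the start of Stag3, 88 before that of Syce2, 120 before that of Stk31 and 49 before that of Taf7l. Tdrd9 held it at 165 and at 95 bases. Tdrd1 held it 11 bases before the start and Mael 223 bases before it. Tdrd9 had the fewest CG of these 8 windows (10), and Syce2 the most (33).

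**Figure D3:**
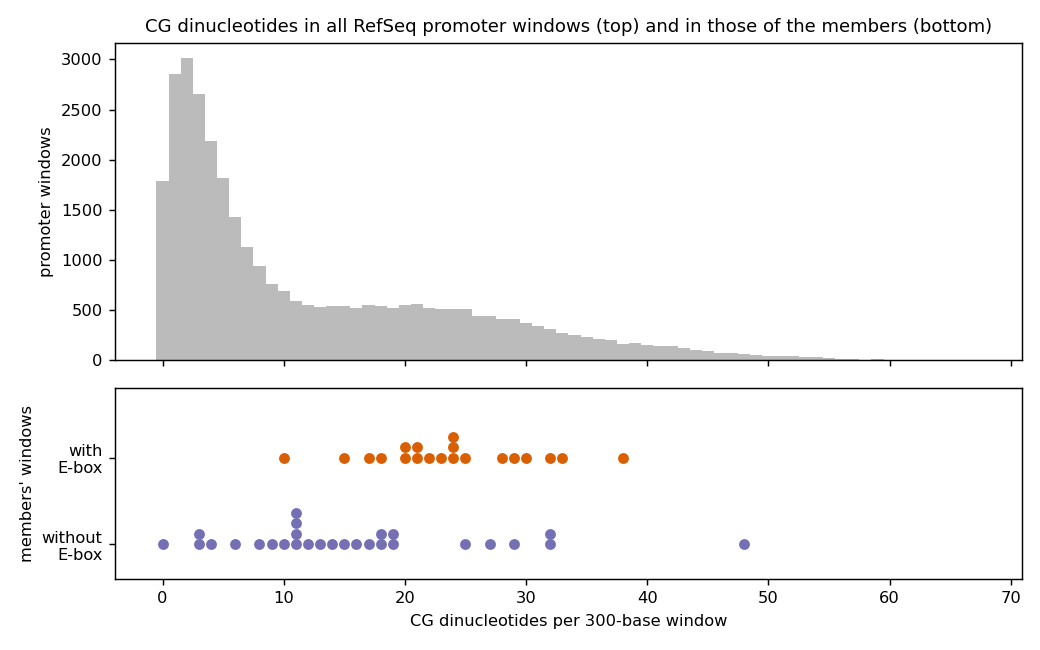
Number of CG dinucleotides per 300-base promoter window (x axis). The upper panel counts all RefSeq windows (y axis, windows), and each point in the lower panel is 1 window of the set, with or without an E-box. All 20 windows of the set with an E-box hold 10 or more CG, while all windows peak at few CG.

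Of the 43 genes, 15 had a mean of at least 10 reads over the 12 hairpin libraries and were tested, with 14768 genes in all. Stk31, Taf7l, Tdrd9 and Piwil2 averaged under 10 reads with control hairpins and passed that limit through the groups in which they were high. Their rises are therefore partly set by the limit, and counts and medians below are given as descriptions. At the limit of 3 reads used further on, the same held for Mael, Fkbp6, Dmc1 and Syce1, which averaged under 3 reads with control hairpins. Without 5-aza, 5 of the 15 were called higher with Setdb1 hairpins and none lower at an adjusted p under 0.05. Over all genes tested, 8.55% were called higher and 3.26% lower (1263 and 482 genes), or 850 and 865 genes when each library was centred on its median. The median change of the 15 was 0.49 on the log2 scale, and that of all genes tested 0.03. Over the 39 genes of the set with any read, all 3 Setdb1 libraries lay above all 3 control libraries in 11 genes and below them in 2, against 18.8% and 8.57% of all rows with a read.

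Stag3 (ENSMUSG00000036928, chromosome 5, 138280240 to 138312393) encodes a cohesin subunit used in meiosis. It held 46, 42 and 36 reads in control replicates A, B and 1, and 115, 137 and 111 reads in the Setdb1 replicates. Mean RPM was 0.828 ± 0.0717 and 2.46 ± 0.164, and Stag3 rose by 1.58 on the log2 scale (SE 0.10, adjusted p 1.64e-06). The groups did not overlap, and shSetdb1.6 gave the highest level. Syce2 (ENSMUSG00000003824, chromosome 8, 84872111 to 84888221), a central element protein of the synaptonemal complex, held 99, 73 and 60 reads with control hairpins and 161, 202 and 158 with Setdb1 hairpins. Mean RPM was 1.53 ± 0.24 and 3.53 ± 0.208, a rise of 1.21 on the log2 scale (SE 0.17, adjusted p 0.000685), again with no overlap.

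Tdrd9 (ENSMUSG00000054003, chromosome 12, 111971559 to 112068854), a helicase with a Tudor domain that acts with Piwil4 in the nuclear branch of the pathway, held 4 reads in each control library. With Setdb1 hairpins it held 48, 53 and 51 reads. The pooled level was 12.8 times that of the controls (95% exact counting interval 7.12 to 25.3), with a fitted log2 fold change of 3.69 (SE 0.31, adjusted p 1.37e-05). Every Setdb1 library, with either hairpin, lay above every control library. Tdrd1 (ENSMUSG00000025081, chromosome 19, 56826209 to 56870012), a Tudor scaffold that binds Piwil2, held 18, 15 and 17 reads in control libraries and 42, 45 and 35 in Setdb1 libraries. Mean RPM was 0.334 ± 0.0235 and 0.828 ± 0.0598, a rise of 1.31 on the log2 scale (SE 0.22, adjusted p 0.00236). No control library reached the level of a Setdb1 library.

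Stk31 (ENSMUSG00000023403, chromosome 6, 49395604 to 49469501), a germ cell kinase with a Tudor domain, had 0 reads in all 3 control libraries and 18, 18 and 21 reads in the Setdb1 libraries. Its level was at least 6.53-fold higher, computed against 3 reads per control library, the most that a count of 0 allows in a library taken alone (adjusted p 0.000159). Mael (ENSMUSG00000040629, chromosome 1, 166201385 to 166238744), a piRNA pathway protein of germ granules, had 0 reads with control hairpins and 7, 4 and 7 with Setdb1 hairpins, at least 2.11-fold higher. Mael entered the test where a mean of at least 3 reads sufficed (25 of the 43 genes, 16128 genes in all), with an adjusted p of 0.00278. With that limit 6 genes of the set were called higher and 0 lower, against 7.88% and 3.01% of all genes tested.

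The remaining tested genes did not pass without 5-aza. Sycp3, a synaptonemal complex protein, changed by 0.49 (SE 0.18, adjusted p 0.104), and its libraries did not overlap. D1Pas1, a testis copy of the helicase gene Ddx3x, changed by 0.56 (SE 0.19, adjusted p 0.08), and Brdt, a testis bromodomain gene, by 0.64 (SE 0.24, adjusted p 0.108). Msh5, a recombination gene, changed by -0.51 (SE 0.20, adjusted p 0.13), with every Setdb1 library below every control library. Tdrd7 and Tdrkh, the most abundant genes of the set, had pooled ratios of 0.965 (95% counting interval 0.919 to 1.01) and 0.995 (0.933 to 1.06). Piwil2, which encodes a PIWI protein of embryonic and adult germ cells, changed by 0.08 (SE 0.27), from 23 to 24 pooled reads.

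**Figure D4:**
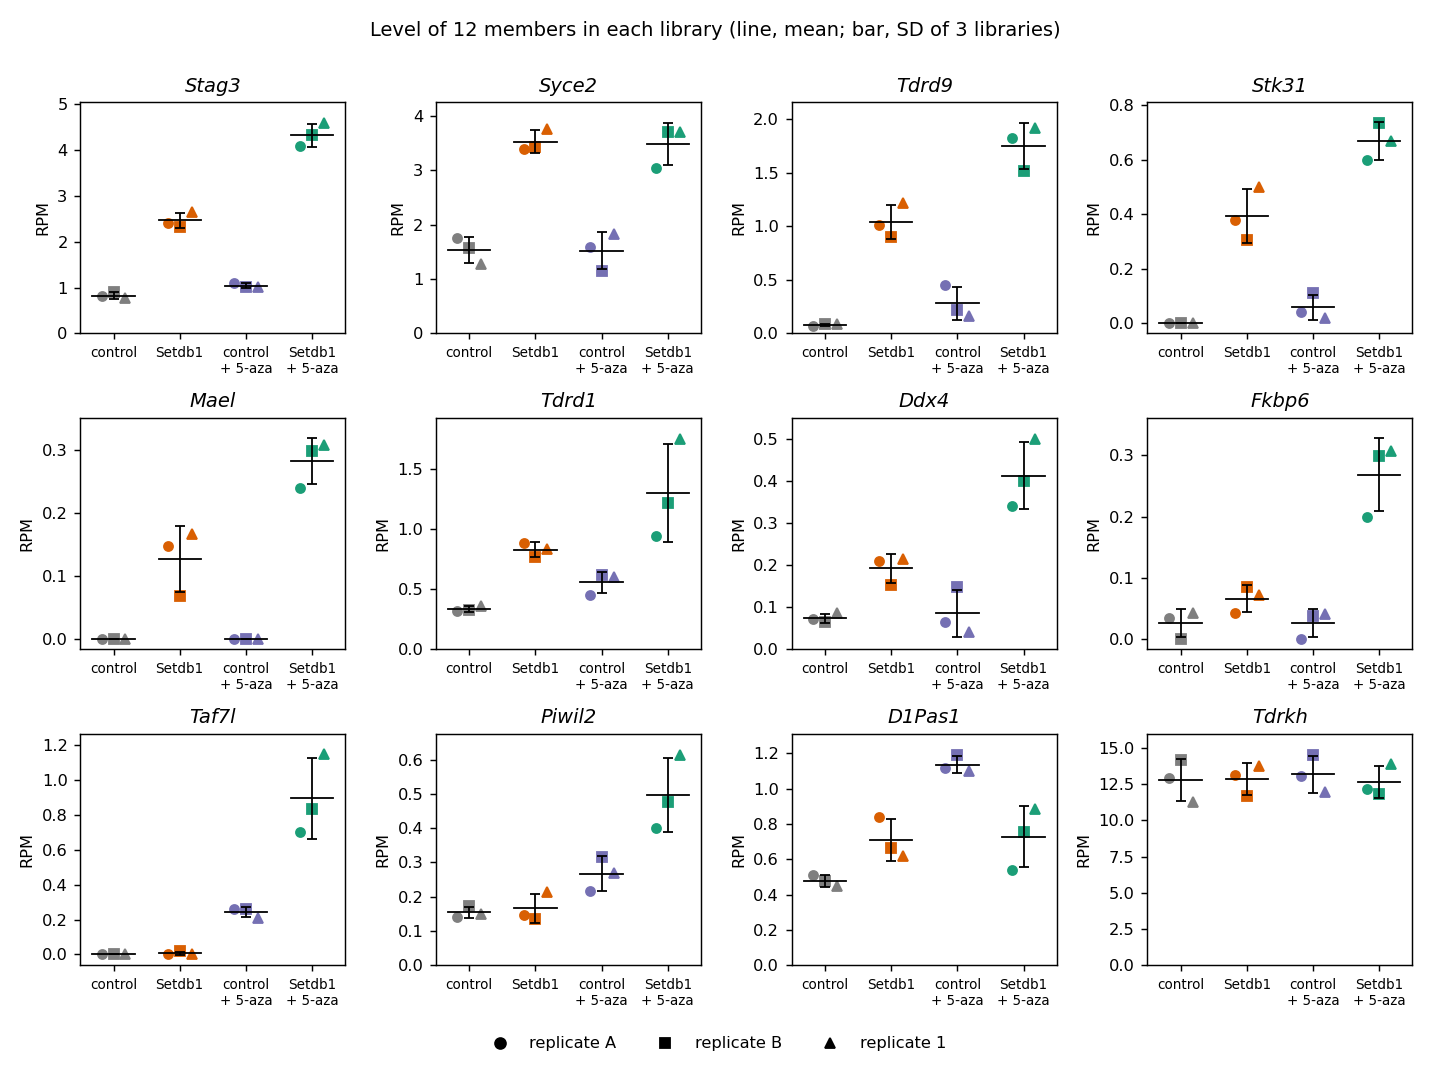
RPM (y axis) of 12 genes of the set in each library of the 4 groups (x axis), with replicates A, B and 1 as circles, squares and triangles, the mean as a line and the SD of 3 libraries as a bar. Stag3, Syce2, Tdrd9, Stk31, Mael and Tdrd1 are higher with Setdb1 hairpins both without and with 5-aza, Taf7l is at or near 0 without 5-aza, D1Pas1 is highest with control hairpins and 5-aza, and Tdrkh is level.

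With 5-aza in both groups, Setdb1 hairpins gave 7 genes called higher and 1 lower among the 15, against 13.3% and 5.09% of all genes tested (1969 and 751 genes, or 1225 and 1317 with median centring). The median change was 0.52, and 0.05 over all genes. All 3 Setdb1 libraries lay above the controls in 16 of the 39 genes with a read and below in 3, against 19.8% and 8.9% of all rows. The 5 genes called without 5-aza were called again. Stag3 held 51, 54 and 49 reads with control hairpins and 204, 217 and 239 with Setdb1 hairpins. Mean RPM was 1.04 ± 0.0508 and 4.33 ± 0.251, with no overlap, and Stag3 rose by 2.06 on the log2 scale (SE 0.10, adjusted p 2.17e-07).

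Syce2 held 74, 62 and 88 against 152, 186 and 193 reads, with a change as large as without the drug (1.21, SE 0.17, adjusted p 0.000571). Tdrd9 held 21, 12 and 8 reads in control cells and 91, 76 and 100 in Setdb1 hairpin cells, a log2 fold change of 2.77 (SE 0.31, adjusted p 0.000125). Tdrd1 held 21, 33 and 29 against 47, 61 and 91 reads (1.19, SE 0.22, adjusted p 0.00308), and the Setdb1 libraries spread more than the controls. Stk31 now had a few reads in control cells (2, 6 and 1), and with Setdb1 hairpins it held 30, 37 and 35. Its log2 fold change was 3.85 (SE 0.50, adjusted p 0.000414).

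Taf7l (ENSMUSG00000009596, chromosome X, 134460118 to 134476490) encodes a germ cell paralog of a subunit of the general transcription factor TFIID. With 5-aza it held 12, 14 and 10 reads in control cells and 35, 42 and 60 in Setdb1 hairpin cells. Mean RPM was 0.242 ± 0.0302 and 0.896 ± 0.231, a rise of 1.86 on the log2 scale (SE 0.34, adjusted p 0.00316). The groups did not overlap, and shSetdb1.6 gave the highest level. With replicates A and B alone the adjusted p was 0.0721.

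Piwil2 (ENSMUSG00000033644, chromosome 14, 70372480 to 70429094) held 10, 17 and 13 reads in control cells and 20, 24 and 32 in Setdb1 hairpin cells, a log2 fold change of 0.89 (SE 0.27, adjusted p 0.0392). The call was lost when any of 6 libraries was left out (control hairpin A, all 3 of control hairpin with 5-aza, and Setdb1 hairpin with 5-aza B and 1), with changes of 0.73 to 1.02 and adjusted p of 0.0515 to 0.172. It was also lost with median centring and with quantile normalization. D1Pas1 (ENSMUSG00000039224, chromosome 1, 186967416 to 186970627) was the only tested gene called lower. It held 52, 64 and 53 reads in control cells and 27, 38 and 46 with Setdb1 hairpins, so that its level fell by 0.67 (SE 0.19, adjusted p 0.0284). Without replicate A or B of either 5-aza group this call was lost (log2 changes of -0.72 to -0.48, adjusted p 0.0644 to 0.0921). Hspa1l, a testis heat shock gene, changed by -0.43 (SE 0.14, adjusted p 0.0548), with the Setdb1 libraries all below the controls.

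Several piRNA genes with fewer reads were higher with both treatments than with 5-aza alone. Where a mean of at least 3 reads sufficed, 10 genes were called higher and 1 lower, against 12.3% and 4.71% of all genes tested. Ddx4 (ENSMUSG00000021758, chromosome 13, 112598333 to 112652310), the germ cell helicase known as Vasa, held 3, 8 and 2 reads in control cells and 17, 20 and 26 in Setdb1 hairpin cells (log2 fold change 2.47, SE 0.42, adjusted p 0.00216). Fkbp6 (ENSMUSG00000040013, chromosome 5, 135291704 to 135349991), which helps load piRNAs, held 0, 2 and 2 against 10, 15 and 16 reads, a pooled ratio of 9.98 (95% counting interval 3.62 to 38.4, adjusted p 0.00161). Mael had 0 reads in control cells and 12, 15 and 16 in Setdb1 hairpin cells, at least 4.63-fold higher (adjusted p 0.000171). In each of these 3 genes every Setdb1 library lay above every control library.

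Dmc1, the recombinase of meiosis, held 0, 4 and 3 reads against 9, 8 and 9 (pooled ratio 3.62, interval 1.53 to 9.87), but did not pass (adjusted p 0.0717). The cohesin gene Rec8 held 4, 6 and 11 against 18, 14 and 10 reads and overlapped (adjusted p 0.164). Mov10l1, the helicase that starts piRNA processing, had a mean under 3 reads and held 3, 0 and 2 against 10, 7 and 6 (ratio 4.48, interval 1.67 to 15.1). Slc25a31, a testis nucleotide carrier of the mitochondrion, held 3, 0 and 0 against 8, 5 and 5 (ratio 5.84, interval 1.71 to 31.0). Asz1, a piRNA pathway gene of the mitochondrial surface, went the other way, with 3, 4 and 3 reads in control cells and 0, 2 and 0 in Setdb1 hairpin cells (ratio 0.195, interval 0.0208 to 0.914). These intervals cover counting error only.

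**Figure D5:**
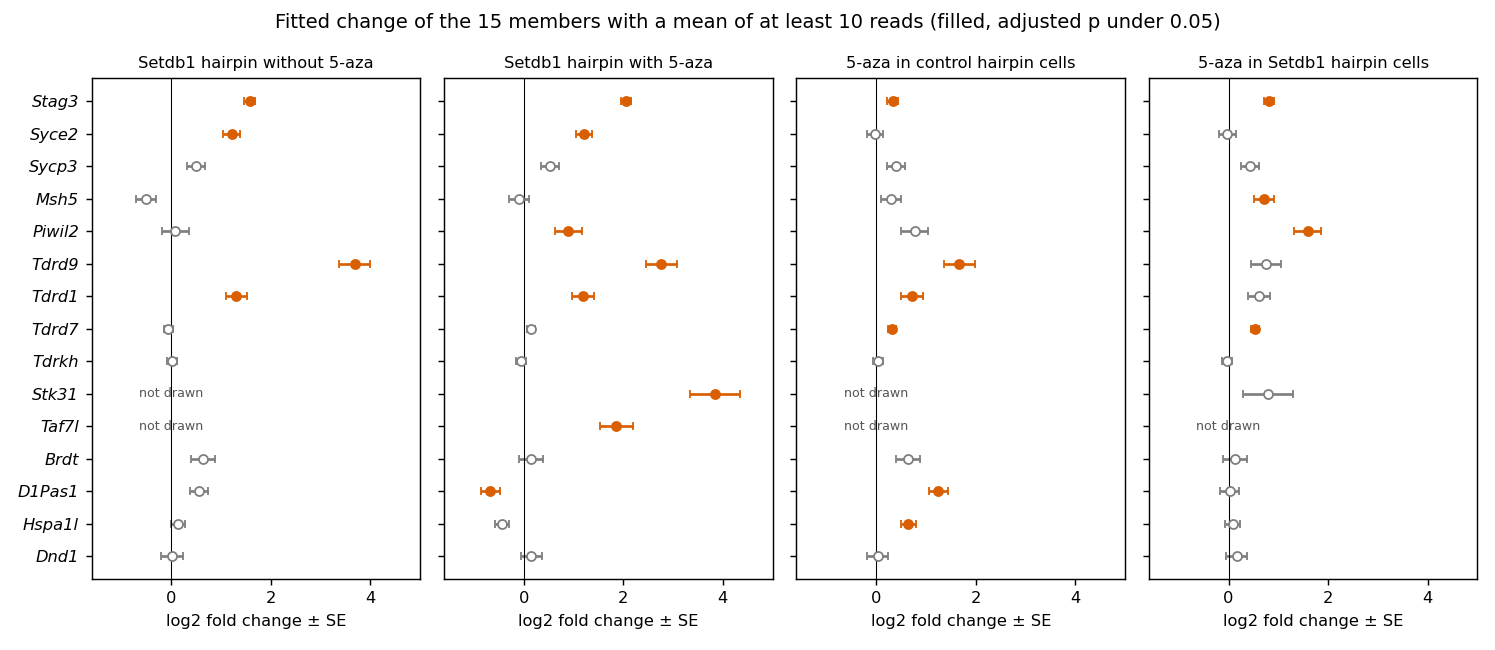
Fitted log2 fold change (x axis, point) and SE (bar) of the 15 tested genes (y axis) in the 4 comparisons. Filled orange points have an adjusted p under 0.05, and changes against a group with 3 or fewer pooled reads are not drawn. Stag3, Syce2, Tdrd9 and Tdrd1 are called in both hairpin comparisons, while Tdrkh and Dnd1 lie near 0 in all 4.

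The drug alone, in cells with control hairpins, gave 7 genes called higher and none lower, against 12.9% and 4.75% of all genes tested (1901 and 702 genes, or 1314 and 1390 with median centring). The median change was 0.64, and 0.05 over all genes. The libraries did not overlap and were higher with 5-aza in 11 of the 39 genes with a read and lower in 0, against 21.0% and 9.51% of all rows. Taf7l went from 0 reads in each library to 12, 14 and 10, at least 4.0-fold higher (adjusted p 3.37e-05). D1Pas1 held 29, 22 and 21 reads without and 52, 64 and 53 with the drug, with a mean of 0.478 ± 0.0332 and of 1.14 ± 0.0486 RPM, and rose by 1.25 on the log2 scale (SE 0.19, adjusted p 0.00108). Hspa1l rose by 0.65 (SE 0.14, adjusted p 0.00992), from 87, 67 and 61 reads to 123, 110 and 99.

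Tdrd9 rose from 4 reads in each library to 21, 12 and 8 (log2 fold change 1.67, SE 0.31, adjusted p 0.00359). The rises of Tdrd1 (0.72, SE 0.22, adjusted p 0.0378), Tdrd7 (0.32, SE 0.09, adjusted p 0.0225) and Stag3 (0.33, SE 0.10, adjusted p 0.0461) were near the threshold. Without control hairpin replicate A these 3 were no longer called (adjusted p 0.104, 0.0909 and 0.116), which left 4, against 8.01% of all genes tested. The call of Tdrd1 was also lost without control hairpin B or 1, control hairpin with 5-aza B or 1, or Setdb1 hairpin with 5-aza B (0.64 to 0.78, adjusted p 0.0519 to 0.12), and that of Tdrd7 without control hairpin B or control hairpin with 5-aza 1 (0.27 to 0.29, adjusted p 0.0763 to 0.0909). For Stag3 it was lost without any library other than control hairpin B and Setdb1 hairpin 1 (0.28 to 0.35, adjusted p 0.0517 to 0.116), and under quantile normalization its change was 0.09. Syce2 was not called (-0.02, SE 0.17), with 232 and 224 pooled reads. Mael had no read with control hairpins in either condition, which allows up to 3 reads in a library taken alone.

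In cells with Setdb1 hairpins, 5-aza gave 5 genes called higher and none lower, against 20.0% and 6.78% of all genes tested (2948 and 1002 genes, or 1813 and 1777 with median centring). The median change was 0.53, and 0.06 over all genes. The 5-aza libraries lay above the others in 19 of the 39 genes with a read and below in 0, against 25.7% and 9.48% of all rows. Taf7l had 0, 1 and 0 reads without and 35, 42 and 60 with the drug, a pooled ratio of 133 (95% counting interval 23.5 to 5300), which rests on 1 read. Piwil2 rose from 7, 8 and 9 reads to 20, 24 and 32 (log2 fold change 1.59, SE 0.27, adjusted p 0.00192). Stag3 rose by 0.81 (SE 0.10, adjusted p 0.00043) and Tdrd7 by 0.53 (SE 0.09, adjusted p 0.0014). Msh5 rose by 0.72 (SE 0.20, adjusted p 0.0225), a call lost without Setdb1 hairpin replicate A or 1 or Setdb1 hairpin with 5-aza replicate B or 1 (0.62 to 0.72, adjusted p 0.0514 to 0.0915).

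Tdrd9 changed by 0.75 (SE 0.31, adjusted p 0.0887), Tdrd1 by 0.61 (SE 0.22, adjusted p 0.0554) and Sycp3 by 0.43 (SE 0.18, adjusted p 0.0966). With the culture label as a block, Tdrd1 and Sycp3 passed (adjusted p 0.0395 and 0.0403). Syce2 was again not called (-0.02, SE 0.17), with 521 and 531 pooled reads. Where a mean of at least 3 reads sufficed, 7 genes were called higher and 0 lower, against 18.5% and 6.14% of all genes tested, among them Fkbp6 (2.05, SE 0.51, adjusted p 0.0126) and Piwil4 (1.30, SE 0.44, adjusted p 0.0476). Piwil4 encodes the nuclear PIWI protein of fetal germ cells and held 4, 3 and 3 reads without and 11, 5 and 11 with the drug.

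Whether the effect of Setdb1 hairpins differed with 5-aza was tested as the interaction of hairpin and drug. None of the 15 genes passed with limma, against 0.00677% and 0.352% of all genes called with a positive and a negative interaction. At an unadjusted p under 0.05 there were 4 of the 15, against 5.64% of all genes, and voom on the recovered reads also called none of 25 (0.0062% and 0.31% of all genes, with 4 of the 25 at an unadjusted p under 0.05, against 5.75% of all). Limma with a mean of at least 3 reads called 0 of 25 as well, against 0.0062% and 0.329%. The 4 were D1Pas1 (-1.23, SE 0.27, adjusted p 0.132), Stag3 (0.48, SE 0.15, adjusted p 0.546), Taf7l (1.79, SE 0.48, adjusted p 0.354) and Hspa1l (-0.57, SE 0.20, adjusted p 0.793). With log2(RPM + 1) as the scale, Stag3 (0.46, SE 0.09, adjusted p 0.0356) and Taf7l (0.60, SE 0.10, adjusted p 0.022) passed. The smaller change of Tdrd9 with 5-aza than without (2.77 against 3.69) was not called (-0.92, SE 0.43, adjusted p 0.793).

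With no limit beyond 1 read in any library (39 genes of the set, 19319 in all), 7 genes were called higher and 0 lower with Setdb1 hairpins without 5-aza, against 5.73% and 2.05% of all, and Syce1 was among them (adjusted p 0.0338). With 5-aza in both groups 12 were called higher and 2 lower, against 9.71% and 3.71%, the added ones being Mov10l1, Slc25a31 and, on the lower side, Asz1. The drug gave 6 higher and 0 lower in control cells, against 9.23% and 3.24%, and 9 and 0 in Setdb1 hairpin cells, against 14.5% and 4.67%. The interaction called 0 of the 39, against 0.0518% and 0.269% of all, and 9 had an unadjusted p under 0.05, against 5.67% of all. The median change of these 39 was 0.075 with Setdb1 hairpins without 5-aza (0.025 over all genes) and 0.29 with it (0.04), lower than over the 15. For the drug it was 0.38 in control (0.06 over all) and 0.53 in Setdb1 hairpin cells (0.06). Voom on the recovered reads of genes with a mean of at least 3 reads called 7 higher and 0 lower without 5-aza (7.34% and 2.72% of all genes), 11 and 1 with it (12.9% and 4.95%), 6 and 0 for the drug in control cells (11.6% and 4.29%) and 11 and 0 in Setdb1 hairpin cells (18.6% and 6.19%). By voom Syce1 also passed without 5-aza, and Dmc1 passed with it.

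The genes called higher with Setdb1 hairpins in at least 1 condition, where a mean of at least 3 reads sufficed, were 10: Stag3, Syce2, Tdrd9, Tdrd1, Stk31, Mael, Ddx4, Fkbp6, Taf7l and Piwil2. All 9 of these with a RefSeq window held CACGTG (Piwil2 had none). Among the other 33 genes, 7 of 29 with a window held it: Brdt, Hormad1, Mov10l1, Piwil1, Slc25a31, Sycp1 and Sycp3. Hormad1 and Piwil1 had no read in the 12 libraries, and Sycp1 had at most 2 pooled reads in a group. TCCCGC was in 4 of the 9 and in 11 of the 29. The 2 sets were chosen by the changes, so these shares are a description. All 18 genes with a mean under 3 reads are among the other 33, because they could not be called. They include Asz1, Dpep3, Hormad2, Mei1, Msh4, Nanos3, Rpl10l, Tdrd12, Tex101 and Zfp42, whose windows hold no CACGTG. Stk31, Taf7l, Mael and Fkbp6 passed the limit of 3 reads through the groups in which they were high. The contrast between the 2 sets is therefore partly set by that limit. Mov10l1 and Slc25a31 were too low for the limit of 3 reads, and their libraries with Setdb1 hairpins and 5-aza lay above those with control hairpins and 5-aza. Of genes whose windows hold no CACGTG, Syce1, Dmc1 and Hormad2 also lay above in that comparison, and Asz1, D1Pas1 and Hspa1l lay below. Without 5-aza, Syce1 and D1Pas1 of these genes lay above and Msh5 and Nanos3 below.

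Most of the remaining genes held few reads or none. Hormad1, Piwil1, Dppa3 and Zfp42 had no read in the 12 libraries. In a library taken alone that allows up to 3 reads, and pooled over the 3 libraries of a group up to 3.69. Spo11, Mei1, Tdrd6, Sycp1 and Tex101 had at most 3 pooled reads in a group. Hormad2 had 5 reads with both treatments and at most 1 in another group, Rpl10l had 4 reads with control hairpins and 5-aza alone, and Dpep3 had 4 and 5 reads in the 5-aza groups. Syce1, a partner of Syce2, went from 2 to 16 pooled reads with Setdb1 hairpins (ratio 8.09, 95% counting interval 1.9 to 72.5), but did not pass at the limit of 3 reads (adjusted p 0.051). Nanos3, an early germ cell gene, held 6 and 9 reads with control hairpins and 1 and 2 with Setdb1 hairpins. Sycp2, Smc1b, Msh4, Tdrd5 and Tdrd12 held between 3 and 36 pooled reads in a group, and their libraries overlapped between the hairpins in both conditions. Dnd1, an RNA-binding protein of early germ cells, was well above the floor and held 78 to 90 pooled reads in every group.

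Other meiosis genes outside the set, of which 18 of 29 listed were tested, had 7 called higher and 0 lower with Setdb1 hairpins without 5-aza (8.55% and 3.26% of all genes), and 11 and 0 with it (13.3% and 5.09%). Their median change was 0.33 and 0.39. The largest fitted rises were those of Tex11, an X-linked gene of meiotic recombination, Rbm44 and Ccdc36, a gene of meiotic break formation, all 3 with few control reads, so that they passed the limit of 10 reads through the Setdb1 groups. Tex11 held 5 and 152 pooled reads without and 13 and 231 with the drug. Rbm44 held 14 reads with control hairpins, 10 of them in 1 library, and 173 with Setdb1 hairpins, and 11 and 204 with the drug. Ccdc36 held 12 and 73, and 14 and 66. With 5-aza against none, 1 of the 18 was called higher and 3 lower in each hairpin group (12.9% and 4.75% of all genes in control, 20.0% and 6.78% in Setdb1 hairpin cells). In control cells Cpeb1 rose by 0.38 (SE 0.06) while Trip13 fell by 0.53 (SE 0.12), Sgol2 fell by 0.40 (SE 0.09) and Brca2 fell by 0.33 (SE 0.08). In Setdb1 hairpin cells Cpeb1 rose by 0.48 (SE 0.06), and Mei4 fell by 0.97 (SE 0.24), Trip13 fell by 0.34 (SE 0.12) and Brca2 fell by 0.34 (SE 0.08). Trip13, Sgol2 and Brca2 also serve dividing somatic cells.

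Of 12 other piRNA pathway genes tested, 3 were called higher and 0 lower with Setdb1 hairpins (8.55% and 3.26% of all genes), and 4 and 0 with 5-aza in both groups (13.3% and 5.09%), with median changes of 0.35 and 0.25. Rnf17, a Tudor domain gene, rose from 0.451 ± 0.0541 to 1.92 ± 0.0195 RPM without and from 0.593 ± 0.0324 to 2.20 ± 0.238 RPM with the drug. Tex19.1 had 0 reads with control hairpins and 37 pooled reads with Setdb1 hairpins (at least 4.08-fold higher), and with 5-aza 47 and 281 reads. Mybl1, a transcription factor of piRNA genes, rose by 0.30 (SE 0.07) and 0.36 (SE 0.07). With the drug against none, 3 of the 12 were called higher and 0 lower in each hairpin group, against 12.9% and 20.0% of all genes called higher. They were led by Dazl, a germ cell RNA-binding protein, with 5 and 253 pooled reads in control and 6 and 561 in Setdb1 hairpin cells, which passed the limit through the 5-aza groups. Tex19.1 rose at least 5.27-fold in control cells and by 2.90 (SE 0.27) in Setdb1 hairpin cells. Morc1 rose by 1.01 (SE 0.22) in control cells, and Spocd1 by 0.84 (SE 0.28) in Setdb1 hairpin cells.

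Among 27 rows of repressors of germline genes, 10 were called higher and 1 lower with Setdb1 hairpins without 5-aza (8.55% and 3.26% of all genes), and 12 and 2 with it (13.3% and 5.09%), with median changes of 0.18 and 0.10. Setdb1 was the largest fall among them. Atf7ip, the partner that stabilises Setdb1, has 2 rows in the table, and both rose: by 1.02 (SE 0.06) and 1.29 (SE 0.07) without the drug and by 0.90 (SE 0.06) and 1.17 (SE 0.07) with it. Uhrf1, which recruits the maintenance DNA methyltransferase, rose by 0.43 (SE 0.10) and 0.60 (SE 0.10) with Setdb1 hairpins. Rybp, a Polycomb protein, fell by 0.24 (SE 0.05) with Setdb1 hairpins and 5-aza. With the drug against none, 1 row was called higher and 4 lower in control cells (12.9% and 4.75% of all genes), and 2 and 4 in Setdb1 hairpin cells (20.0% and 6.78%). In control cells 1 row of Atf7ip rose by 0.24 (SE 0.07), while Uhrf1 fell by 0.42 (SE 0.10), Hells fell by 0.35 (SE 0.10) and Smchd1 fell by 0.21 (SE 0.05). In Setdb1 hairpin cells Ehmt2 rose by 0.20 (SE 0.04) and Hdac1 by 0.19 (SE 0.05), while Dnmt3b fell by 0.73 (SE 0.15), Hells fell by 0.32 (SE 0.10) and Smchd1 fell by 0.21 (SE 0.05).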

How the data were processed

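Poly(A) RNA was sequenced as 100-base single-end reads. The deposited table holds log2 RPM per gene, made by the authors from counts that are not in it, with genes without a read at the value of 0.9 read. The submitters' processing notes name CASAVA 1.4 and mm10. The aligner, the counter, the use of strand and the treatment of intronic reads are not given in the sources used here. All 13 columns matched a library. The step between low values gave back whole reads for all values (within 0.01 read), and pooled reads carry exact 95% counting intervals, which cover counting error only. Genes with a mean of at least 10 reads over the 12 hairpin libraries were fitted with limma 3.58.1 (trended empirical Bayes on log2 RPM, all 4 groups together, R 4.3.3), with Benjamini-Hochberg adjustment over all genes tested and a threshold of 0.05. The steps were tested on simulated data with 200 changed genes. Read limits, pseudocounts of 1 and 0.1 RPM, voom on recovered reads, scalings, blocks, subsets of hairpins and left-out libraries were tried as alternatives, of which voom with a mean of at least 3 reads was chosen after seeing the data.

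The 44 genes and the other lists were chosen with earlier results of these data known, and support nothing by their choice. Every gene of the set was to be named, with the 3 largest called rises and falls per comparison of each other list. Ensembl coordinates are of GRCm38, and promoter windows are from RefSeq (GRCm38.p6). Deviations of libraries from their group means were correlated to see whether labels pair the libraries. For control and Setdb1 hairpins with the same replicate label r ranged from -0.291 to 0.545, and for control cultures without and with 5-aza from 0.0857 to 0.462, so these were not taken as pairs. For Setdb1 cultures without and with 5-aza it was 0.281 to 0.487, and the blocked values are given where they change a call.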

Additional observations from a re-analysis of the deposited data

Results flagged for a closer look

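The library treated with 5-aza that has no named hairpin, and so entered no comparison, held 7 of the 43 genes above all 6 control hairpin libraries, by the lower end of the 95% exact counting interval of its level (16.3%, against 9.38% of all 25965 rows). Stag3 stood at 2.35 RPM (48 reads, interval 1.74 to 3.12), against 1.1 RPM in the highest control library. Tdrd9 also stood at 2.35 RPM with 48 reads, against 0.452 RPM. Piwil2 stood at 1.13 RPM (23 reads, 0.715 to 1.69) and Piwil4 at 0.54 RPM (11 reads, 0.269 to 0.966), and these 2 lay above all 12 hairpin libraries (4.65% of the 43, against 5.86% of all rows), of which the highest had 0.614 and 0.22 RPM. Taf7l stood at 0.785 RPM (16 reads), Rec8 at 0.589 RPM (12 reads) and Fkbp6 at 0.196 RPM (4 reads). Mael had no read there, and Stk31 had 3. This library was shallower (20.4 M reads) and held 110 reads of Emr1 and 75 reads of Ptprc, markers of macrophages and leukocytes. Their part in these levels was not tested. It has no replicate, and its hairpin, if any, is not known. Its name holds PGK, so its cells may be of another cross than those of the 12 hairpin libraries.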

How the results depend on the processing

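Stag3, Syce2, Tdrd9, Tdrd1 and Stk31 kept their rise with Setdb1 hairpins, in both conditions, under every alternative that tested them, and no change reversed its direction. Tdrd9 and Stk31 passed the limit of 10 reads through the groups in which they were high. Most alternatives kept that limit, so for these genes they are a description. The number of genes called did change. With genes of at least 1 RPM in 3 libraries, which kept 8 of the set, 3 were called higher with Setdb1 hairpins without 5-aza (9.01% of all genes tested), 3 with it (14.5%), and 2 for the drug in Setdb1 hairpin cells (21.4%). With no limit on reads, of 39 tested 12 were called higher and 2 lower with Setdb1 hairpins and 5-aza, and 9 higher for the drug in Setdb1 hairpin cells. Voom with a mean of at least 3 reads (25 tested) called 11 and 11 higher for these, and voom with the limit of 10 reads called 8 of 15 for the latter (20.2% of all genes). With log2(RPM + 1), 4 of 15 were called higher for the drug in control cells (12.6% of all genes), 8 in Setdb1 hairpin cells (20.3%) and 2 for the interaction (0.0609%). The count of genes lower with Setdb1 hairpins and 5-aza, 1 in the report, was 2 with log2(RPM + 1), voom, median centring and quantile normalization, and 0 with the groups of the contrast alone or replicates A and B alone. Over all genes 2.58% to 8.92% were called lower in these settings.

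Leaving out 1 library at a time gave 5 to 6 genes of the set higher with Setdb1 hairpins without 5-aza and 6 to 8 with it. Among all 14768 genes tested, 587 to 1404 and 961 to 2447 were called higher in these fits. For the drug, 4 to 7 of the set were higher in control cells (4 without control hairpin replicate A) and 4 to 7 in Setdb1 hairpin cells. Of all genes tested it was 1006 to 2052 and 1697 to 3215. Genes of the set lower with Setdb1 hairpins and 5-aza numbered 0 to 2 (2.54% to 7.56% of all genes). There were 2 without Setdb1 hairpin replicate 1, and 0 without replicate A or B of either 5-aza group.

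The replicate block gave 5 genes higher with Setdb1 hairpins without 5-aza (12.2% of all genes). With 5-aza it gave 8 higher and 2 lower (18.8% and 7.92%), where Sycp3 (0.52, adjusted p 0.0364) and Hspa1l (-0.43, adjusted p 0.0476) passed. With the culture label as the block, 7 were called higher for the drug in each hairpin group (Tdrd1 and Sycp3 were added in Setdb1 hairpin cells) and 0 for the interaction. Of all genes, 19.8% in control and 26.8% in Setdb1 hairpin cells were called higher for the drug. For the interaction 0.325% were called with a positive and 1.06% with a negative value. The block changed no other call. The median of all genes moved by under 0.1 between scalings. A count of 0 allows up to 3 reads per library at this depth, so small changes of the lowest genes may be missed.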
